A study of Mus musculus with 6 samples.

Results

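CD8 T cells of the spleen were compared with CD8 T cells of the thymus by single-cell RNA sequencing, separately in each of 2 genotypes. Cells were selected on their own RNA. A barcode was kept when it had at least 500 genes, at least 1000 unique molecular identifiers (UMIs, which count RNA molecules) and at most 20% mitochondrial UMIs, and was then chosen by at least 1 UMI of Cd8a or Cd8b1 and 0 UMIs of Dntt. This rule took 5929 of the 15633 barcodes of the 4 libraries, 4733 from spleen and 1196 from thymus, and the whole series holds 16651 barcodes in 6 libraries. Because the CD8 genes and Dntt chose the cells, and because the genes described below were picked for a ratio of the same direction in both genotypes, all values are a description and none was tested.

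The study compared CD8 T cells with and without PD-1, the inhibitory receptor encoded by Pdcd1, in thymus, spleen and B16-OVA tumors. Thymic and splenic cells came from untreated adult C57BL/6 mice more than 8 weeks old, with 1 library per tissue and genotype from 1 mouse each. Both genotypes carried floxed Pdcd1 alleles. Pdcd1fl/fl mice had no Cre, and Pdcd1 cKO mice were Pdcd1fl/fl with an E8I Cd8a-cre transgene, which is active in CD8 T cells after positive selection. The cells had been enriched with a CD8a isolation kit before encapsulation with the PIPseq v3 chemistry, so both tissues were seen after a bead selection.

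Developing T cells pass through a stage with both coreceptors, are selected on self peptides, and complete their maturation as CD8 single-positive cells in the thymic medulla. During this maturation the genes of the immature stage are shut down, cell division ends, and receptors for leaving the thymus and for circulation appear. The spleen holds cells that have left, a mixture of naive cells and of memory or effector cells that transcribe chemokines, granzymes and NK receptors.

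Values are given throughout for the library labelled Pdcd1fl/fl first and the library labelled Pdcd1 cKO second. The rule kept 240 and 956 cells of thymus and 861 and 3872 cells of spleen, with 962825 and 5127568 UMIs in thymus and 1377121 and 7293181 UMIs in spleen. Thymic cells were deeper, with a median of 3500.5 and 4905 UMIs per cell against 1374 and 1686 in spleen. Levels are counts per 1000000 UMIs (CPM) summed over the cells of a library, ratios are log2 CPM of spleen over thymus within a genotype, and intervals are 95% intervals that cover counting error only. With 1 library per tissue and genotype, differences between libraries or mice and differences between tissues cannot be told apart.

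Pdcd1, the targeted gene, went against the labels. It stood at 1.04 and 14.0 CPM in thymus (1 and 72 UMIs) and at 0.726 and 12.2 CPM in spleen (1 and 89 UMIs). The libraries labelled Pdcd1 cKO were the higher ones in both tissues. In the tumor libraries it was at 108 and 116 CPM. By flow cytometry, the study reports loss of PD-1 in thymic CD8 T cells of Pdcd1 cKO mice, the direction of the labels. Which exons are deleted is not given in the sources used here, and a 3' tag outside the deleted part would check nothing. Genotype names below are therefore the labels of the libraries. Between tissues, the Pdcd1 ratios were −0.52 (95% interval −6.81 to 5.78) and −0.20 (−0.67 to 0.27).

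The cells were set against their markers, of which Cd8a or Cd8b1 was present in each cell by the rule. Cd8a, the CD8 alpha chain, was at 229.5 and 326 CPM in thymus and 321 and 310.2 CPM in spleen, and Cd8b1, the beta chain, at 599 and 664 CPM in thymus and 868 and 1049 CPM in spleen. Spleen and thymus overlapped for Cd8a, while Cd8b1 was higher in both spleen libraries and stayed under 2-fold. A single CD8 UMI admitted 32.9% and 14.4% of the thymic cells and 54.4% and 34.3% of the splenic cells. Of 6 T cell markers all were present in every library, with a summed level of 4746 and 4652 CPM in thymus and 3519.7 and 4672 CPM in spleen. Cd4 was found in 0.417% and 1.78% of thymic and 0.116% and 0.491% of splenic cells.

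Dntt, which encodes the terminal transferase of immature thymocytes, took out 349 and 797 thymic cells, 59.3% and 45.5% of those with a CD8 UMI, against 2 and 13 splenic cells. Of the thymic cells taken out, 101 and 371 had a single Dntt UMI. RNA of immature cells was still counted in the thymic cells that remained. A UMI of Cd24a, Rag1, Arpp21, Hes1, Il2ra, Trdc or Trgc1 was found in 65.4% and 67.8% of thymic and 1.86% and 3.56% of splenic cells, and after each cell was thinned to 1000 UMIs in 35.0% and 25.0% of thymic and 1.28% and 1.78% of splenic cells. Markers of double-positive or immature thymocytes (7 genes, with Dntt at 0 by the rule) summed to 95.6 and 51.7 CPM in thymus and 4.36 and 5.90 CPM in spleen, with Arpp21 the most abundant in both thymic libraries and Rag2 at 0 in thymus of Pdcd1fl/fl.

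Some libraries stood apart. In the spleen library labelled Pdcd1 cKO, 65.0% of cells had a UMI of the heat shock genes Hspa1a or Hspa1b, against 7.08% in the other spleen library and 7.08% and 6.28% in thymus. Thinned to 1000 UMIs, these shares were 51.4% against 5.23%, and 1.67% and 2.20% in thymus. The same spleen library had Igkc or Ighg2b UMIs in 58.6% of cells, against 11.7% in the other spleen library and 1.67% and 2.20% in thymus, or, thinned, 40.2% against 7.55%, and 1.25% and 0.314% in thymus. Without the cells that held Hspa1a or Hspa1b, an alternative chosen after seeing the data, the counts of genes past 2-fold given further on were 100 toward spleen and 122 toward thymus. In the spleen library labelled Pdcd1fl/fl, 1478 of 6929 barcodes passed the cell filter, compared with 4928 of 4963 in the other. No thymic barcode was shared with another library of the 4, and the 2 barcodes shared by the spleen libraries were not among the cells kept.

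Markers of other cell types were summed over the same cells. B cell markers (10 genes) reached 127 and 98.1 CPM in thymus and 184 and 1209 CPM in spleen, led by Ighm except in spleen of Pdcd1 cKO, where Igkc led, and Ms4a1 was at 0 in all but that library. Myeloid markers (10 genes) summed to 214 and 209.7 CPM in thymus and 174 and 242 CPM in spleen, with Csf1r at 0 in 3 of the 4 libraries. Stromal and epithelial markers (9 genes) summed to 356 and 94.8 CPM in thymus and 77.0 and 74.7 CPM in spleen, with Dcn leading in thymus of Pdcd1fl/fl, Pecam1 in the others, and Krt5 at 0 in all 4. NK and innate-like T markers (6 genes) summed to 94.5 and 72.5 CPM in thymus and 15.2 and 23.6 CPM in spleen and were led by Trdc in each library. Regulatory T cell markers (4 genes) summed to 315 and 383 CPM in thymus and 225 and 268 CPM in spleen, led by Ctla4, with Foxp3 at 0 in spleen of Pdcd1fl/fl.

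Granulocyte and progenitor markers (9 genes) summed to 3.12 and 1.56 CPM in thymus and 2.18 and 86.1 CPM in spleen, where Mpo led in the last library and Ltf in the other 3. In that last library 1 cell held 191 of 229 Mpo UMIs (83.4%) and 1 cell held 156 of 212 Elane UMIs (73.6%). Dendritic cell and MHC class II markers (8 genes) summed to 33.2 and 58.1 CPM in thymus and 7.99 and 61.3 CPM in spleen, led by Cd74 except in spleen of Pdcd1fl/fl, where Flt3 led, and Siglech was at 0 in all 4. Erythroid markers (6 genes) summed to 0 and 8.97 CPM in thymus and 0.726 and 27.3 CPM in spleen, led by Hbb-bs in both libraries labelled Pdcd1 cKO, and platelet markers (4 genes) to 2.08 and 0.975 CPM in thymus and 1.45 and 3.84 CPM in spleen, led by Itga2b, with Gp9 at 0 in all 4. An alternative without cells that held marker UMIs of other lineages kept 60 and 184 thymic and 475 and 767 splenic cells. Of the genes past 2-fold given further on, it shared 48 of 86 toward spleen and 95 of 115 toward thymus. The part that cells of these types had in the results below was not tested beyond this.

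With a mean of at least 20 CPM over the 4 libraries, 5427 of 32227 genes were described. Of these, 86 genes (1.58%) were at least 2-fold higher in spleen in both genotypes and 115 genes (2.12%) were at least 2-fold higher in thymus in both. Taken singly, the genotypes differed, since 131 and 771 genes passed 2-fold toward spleen and thymus in the libraries labelled Pdcd1fl/fl alone, and 318 and 175 in those labelled Pdcd1 cKO alone. Both ratios were above 0 for 1062 genes, both below 0 for 2054, and of opposite sign for 2311.

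The median ratio of all described genes was −0.39 and 0.08. Scaling by TMM factors moved it to 0.02 and 0.03, median-of-ratios factors to 0.04 and 0.03, and totals without mitochondrial, ribosomal protein and Malat1 counts to −0.26 and −0.13. The balance of directions differed between these settings. Spleen-higher genes were 42.8% of the genes past 2-fold with CPM, 61.0% (144 against 92 genes) with TMM, 66.0% (124 against 64) with median-of-ratios and 33.6% (117 against 231) with the reduced total. The number of genes that reached a mean of 20 on each scale differed too, with 5407 described with TMM, 4344 with median-of-ratios and 6982 with the reduced total. Where a number of alternatives is given below, it is out of 17 settings of scaling, filters, gates and cells left out, 2 of them chosen after seeing the data, without the pair that leaves out 1 genotype. A gene was kept in an alternative when it was described and past 2-fold in the same direction in both genotypes. A mean CPM of at least 5 or no filter beyond 1 UMI leaves the ratios unchanged, so these settings keep every such gene by construction. An alternative that leaves out the cells with a gene's UMIs loses that gene by construction. Without the Dntt condition, 282 of 5546 described genes were past 2-fold toward spleen and 403 toward thymus.

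Just inside the threshold toward spleen were Ly6c2 (1.02 and 2.09) and Sirt1 (1.02 and 1.23), and just outside were Zc3h12a (0.98 and 1.52) and F2r (0.98 and 1.50). Toward thymus, Wdhd1 (−2.43 and −1.004) and Sart3 (−1.19 and −1.003) were just inside, and Frmd6 (−1.32 and −0.996) and Nbr1 (−1.76 and −0.99) just outside.

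**Figure D1:**
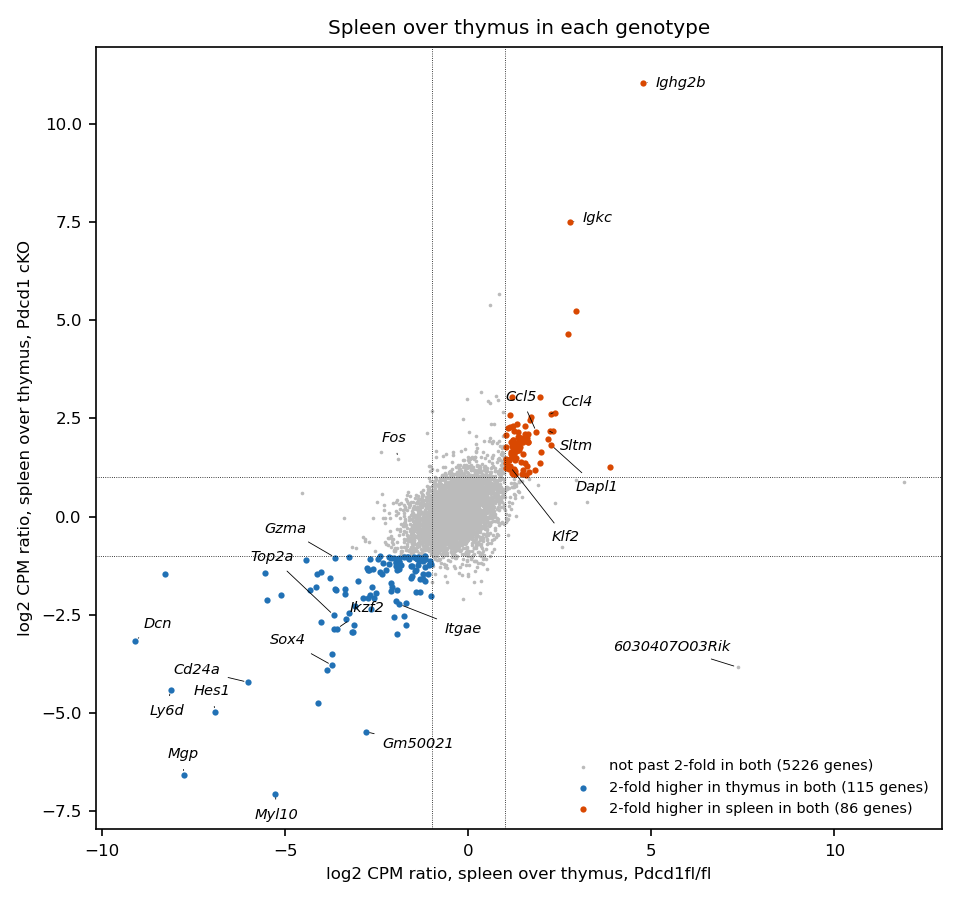
Each point is 1 of 5427 genes, with the log2 CPM ratio of spleen over thymus in the libraries labelled Pdcd1fl/fl on the horizontal axis and in those labelled Pdcd1 cKO on the vertical axis, 0.5 counts added to each side, and dotted lines at 2-fold. The 86 genes at the upper right include Ccl5, Sltm and Dapl1, and the 115 genes at the lower left include Hes1, Cd24a and Sox4.

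Part of the cytotoxic and effector memory list was higher in spleen. For this list and those below, the shares over all genes described were 1.58% past 2-fold toward spleen and 2.12% toward thymus. Of 30 described cytotoxic and effector memory genes, 9 were at least 2-fold higher in spleen in both genotypes (Ccl5, Ccl4, Gzmm, Klrd1, Fasl, Eomes, Cxcr3, S100a6 and Ly6c2) and 1, Gzma, in thymus. The median ratios of the list were 0.57 and 1.23, beside −0.39 and 0.08 over all genes, and remained above 0 with each of the other scalings. Both ratios were above 0 for 20 of the 30 genes, both below 0 for 2 and of opposite sign for 8. The 8 were Prf1, which encodes perforin, Ccl3, Ifng, Ctsd, Klrk1, Id2, Cd160 and Anxa2. The count toward spleen ran from 2 to 19 over the 17 alternatives and that toward thymus from 0 to 2. Toward spleen it was 2 when both intervals had to lie beyond 2-fold, 4 without cells that held Mki67 or Top2a, 5 without those with marker UMIs of other lineages and, in an alternative chosen after seeing the data, 3 without those with immature or gamma-delta RNA. It was 13 with TMM factors, 13 with median-of-ratios factors and 19 without the Dntt condition. Of the 9 genes, Ccl4 was kept in all 17 alternatives and Ccl5 in 16, and the others in 8 (Fasl) to 13 (Klrd1).

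Ccl5 encodes a chemokine that memory and effector CD8 T cells store as RNA and release on stimulation. Its level was 1077 and 1822 CPM in thymus and 3909 and 8093 CPM in spleen. Both spleen libraries lay above both thymus libraries, 3.63-fold and 4.44-fold within genotype, with ratios of 1.86 (95% interval 1.76 to 1.96) and 2.15 (2.12 to 2.18). Ccl4, a chemokine released by activated T cells, was at 30.1 and 93.2 CPM in thymus and 145 and 571 CPM in spleen, 4.75-fold and 6.12-fold higher in spleen. Again the groups did not overlap, although the thymus of Pdcd1 cKO was closer to the spleen of Pdcd1fl/fl than to its own spleen.

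Cells differed in Ccl5 within each library. After each cell was thinned to 1000 UMIs, Ccl5 was present in 28.8% (23.1 to 34.9%) and 29.5% (26.6 to 32.5%) of thymic cells and 80.6% (77.8 to 83.2%) and 93.8% (93.0 to 94.5%) of splenic cells. Without thinning the shares were 48.3% and 54.2% in thymus and 86.9% and 97.8% in spleen. In thymic cells with a Dntt UMI, which should lack it (736 and 1455 cells of the cell filter, with or without a CD8 UMI), the thinned shares were 9.65% and 17.2% at median depths of 5364 and 6150 UMIs, below the shares in the cells kept. Without thinning, the shares of these deeper cells with Dntt were 27.4% and 52.8%. The 24 and 96 thymic cells with the most Ccl5 held 68.5% and 76.5% of its thinned UMIs, and the 86 and 387 such cells in spleen, the same proportion of each library, held 32.7% and 32.7%. The median cell had 0 and 0 thinned Ccl5 UMIs in thymus and 2 and 6 in spleen. For Ccl5 and the other genes given by shares, no background share was taken in spleen, where 2 and 13 cells with a CD8 UMI had Dntt.

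Nkg7, whose product sits in cytotoxic granules, was at 712 and 659 CPM in thymus and 1283 and 1835 CPM in spleen. It was higher in both spleen libraries but passed 2-fold in the libraries labelled Pdcd1 cKO alone, with ratios of 0.85 and 1.48. Its thinned shares were 45.0% and 39.3% in thymus and 63.8% and 76.2% in spleen (73.3% and 81.0% in thymus and 74.7% and 87.6% in spleen without thinning), and 15.9% and 17.7% in thymic cells with Dntt.

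Klrd1, the CD94 chain of NK receptors, was at 97.6 and 96.3 CPM in thymus and 214 and 232 CPM in spleen, 2.19-fold and 2.41-fold higher in spleen. Gzmm, granzyme M, was at 54.0 and 19.1 CPM in thymus and 123 and 158 CPM in spleen. The ratios of Gzmm, 1.18 (95% interval 0.74 to 1.67) and 3.04 (2.75 to 3.36), shared a direction and differed in size. When thymic and splenic cells with RNA of immature or gamma-delta cells were left out, an alternative chosen after seeing the data, the Gzmm ratios were 0.18 and 3.43, and over the 17 alternatives Gzmm was kept in 10.

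Eomes, a T-box factor of memory CD8 T cells, was at 23.9 and 43.3 CPM in thymus and 58.1 and 97.1 CPM in spleen, and Cxcr3, the receptor for interferon-induced chemokines, at 17.7 and 17.0 CPM in thymus and 43.6 and 57.0 CPM in spleen. Both spleen libraries were above both thymus libraries for each gene, 2.39-fold and 2.24-fold for Eomes and 2.42-fold and 3.35-fold for Cxcr3. Leaving out cells with marker UMIs of other lineages brought the Eomes ratios to −0.01 and 0.86, and leaving out cells with Mki67 or Top2a brought those of Cxcr3 to 0.88 and 2.00. Without cells that held Ccl5, Nkg7 or Gzma, which left 20 and 83 thymic and 39 and 21 splenic cells, the Eomes ratios were −1.13 and 2.41, and S100a6 turned to −0.48 in the libraries labelled Pdcd1 cKO. Eomes was kept in 10 of the 17 alternatives and Cxcr3 in 11.

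Gzma, granzyme A, was the member of its list past 2-fold toward thymus. It stood at 166 and 111 CPM in thymus and 13.1 and 53.5 CPM in spleen, 12.4-fold and 2.07-fold higher in thymus, with ratios of −3.63 and −1.05, and was kept in 13 of the 17 alternatives. Thinned shares were 13.8% and 7.85% in thymus and 0.813% and 3.80% in spleen (30.0% and 21.8% in thymus and 0.929% and 5.89% in spleen without thinning). Thymic cells with a Dntt UMI were higher still, at 35.7% and 15.6%. In thymus of Pdcd1fl/fl, cells with RNA of immature or gamma-delta cells had 224 CPM of Gzma and the other cells 42.2 CPM. The same split in thymus of Pdcd1 cKO gave 108 and 117 CPM, with no such gap.

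Genes of egress and homing moved in different directions. Of 21 described members, 5 were higher in spleen in both genotypes (Klf2, Cxcr3, Cxcr4, Cd44 and Cd69) and 2 in thymus (Ccr9 and Itgae), with medians of −0.10 and 0.50. The first of these medians was above 0 with each of the other scalings. The count toward spleen was 1 when both intervals had to lie beyond 2-fold, 1 without cells that held Mki67 or Top2a and 1 without those with marker UMIs of other lineages, and at most 6 in any of the 17 alternatives. Cd69 was kept in 16 of them, Klf2 in 14, and Cxcr3, Cxcr4 and Cd44 in 11 each.

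Klf2 encodes the factor that turns on egress receptors in mature thymocytes. Its level was 460.1 and 411 CPM in thymus and 1009 and 996 CPM in spleen, 2.19-fold and 2.42-fold higher in spleen. The tissues did not overlap, and the libraries of each tissue lay close together. Thinned shares of cells were 31.7% and 32.4% in thymus and 58.0% and 59.2% in spleen, against 8.29% and 11.3% in thymic cells with Dntt. Unthinned, the shares were 68.3% and 70.3% in thymus and 70.3% and 75.7% in spleen. Without cells carrying Mki67 or Top2a the ratios were 0.92 and 1.25.

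S1pr1, the sphingosine-1-phosphate receptor that lets cells leave the thymus and is a target of Klf2, did not follow it. Its level was 147 and 200.5 CPM in thymus and 178 and 123 CPM in spleen, with ratios of 0.27 (95% interval −0.03 to 0.58) and −0.71 (−0.84 to −0.58). Thymus and spleen overlapped. Ccr7, the receptor that guides cells into the thymic medulla and into T cell zones, was at 476 and 707 CPM in thymus and 337 and 321 CPM in spleen, higher in both thymus libraries and past 2-fold only in those labelled Pdcd1 cKO, with ratios of −0.50 and −1.14.

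Cd69, an activation antigen that pulls S1pr1 off the surface, was at 179 and 264 CPM in thymus and 472 and 991 CPM in spleen, 2.64-fold and 3.76-fold higher in spleen. Splenic levels lay above both thymic ones, and the spleen of Pdcd1 cKO was highest. In thinned cells Cd69 was present in 16.2% and 20.9% of thymic and 31.5% and 55.8% of splenic cells, against 4.08% and 10.1% with Dntt, and unthinned in 36.7% and 55.8% in thymus and 42.5% and 70.6% in spleen. Leaving out cells with marker UMIs of other lineages gave Cd69 ratios of 0.94 and 1.72. Cxcr4, the receptor for Cxcl12, was at 69.6 and 72.9 CPM in thymus and 163 and 154 CPM in spleen, and Cd44, a hyaluronan receptor high on memory cells, at 36.4 and 33.2 CPM in thymus and 82.1 and 100.4 CPM in spleen. For both genes the spleen libraries were the higher ones. Cxcr4 fell under 2-fold without the cells that carried heat shock RNA (1.21 and 0.99), and Cd44 without those that carried immature or gamma-delta RNA (0.60 and 1.22), both alternatives chosen after seeing the data.

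Itgae, the alpha E integrin that holds cells to epithelial cadherin, was at 82.1 and 96.7 CPM in thymus and 21.8 and 20.6 CPM in spleen, 3.73-fold and 4.69-fold higher in thymus. Ccr9, the receptor for the thymic and intestinal chemokine Ccl25, was at 82.1 and 123 CPM in thymus and 21.1 and 15.5 CPM in spleen, 3.85-fold and 7.89-fold higher in thymus. Neither gene overlapped between tissues, and of the 17 alternatives Ccr9 was kept in 16 and Itgae in 15.

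**Figure D2:**
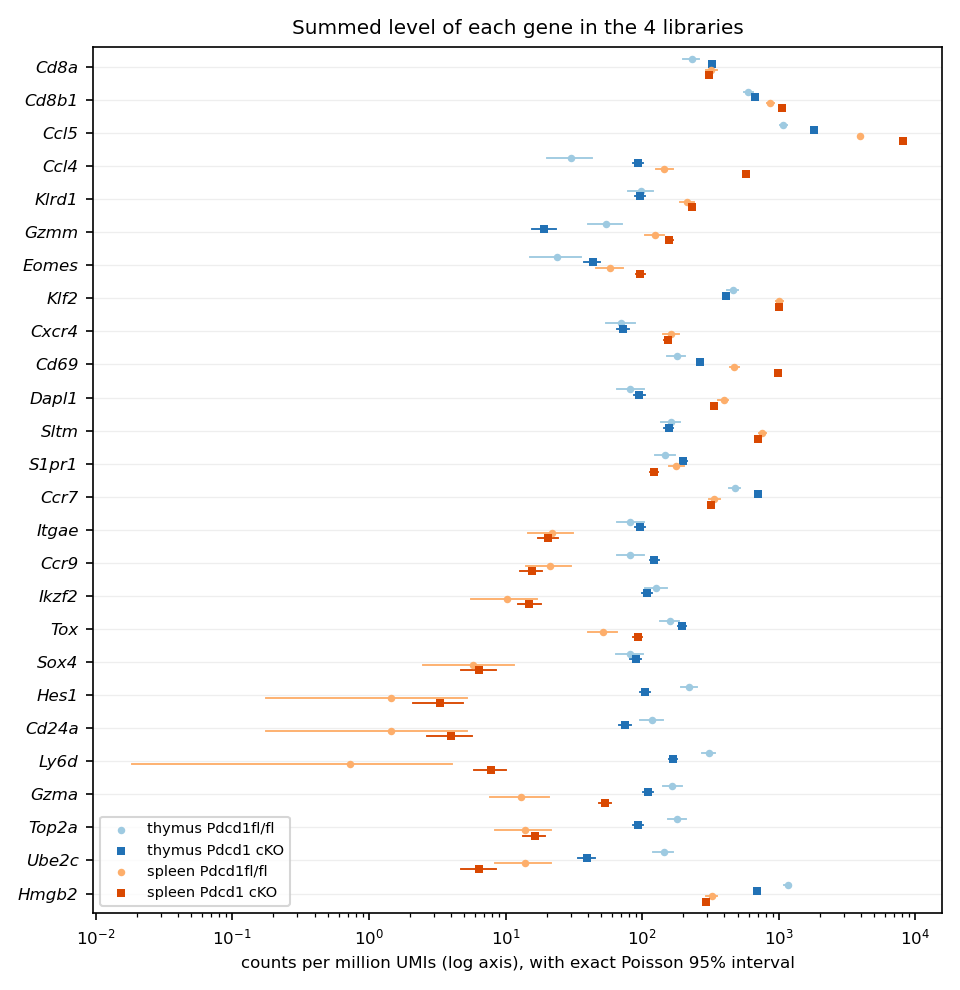
Points give the summed level of 26 genes in CPM on a log axis, blue for thymus and orange for spleen, circles for libraries labelled Pdcd1fl/fl and squares for those labelled Pdcd1 cKO, with exact Poisson 95% intervals as bars. From Ccl5 to Sltm the spleen points lie to the right, S1pr1 overlaps between tissues, and from Itgae to Hmgb2 the thymus points lie to the right.

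Among 20 mature naive and memory precursor genes, 3 were higher in spleen in both genotypes (Klf2, Dapl1 and Ms4a4c) and 0 in thymus, with medians of −0.01 and 0.32, the first of which was above 0 with the other scalings. The count toward spleen ran from 2 to 7 over the 17 alternatives, with 7 when the Dntt condition was dropped, and Dapl1 was kept in all 17. Ms4a4c turned to −0.0706 in the libraries labelled Pdcd1 cKO without cells that held Ccl5, Nkg7 or Gzma. Dapl1, a gene of resting naive and memory CD8 T cells, was at 82.1 and 95.2 CPM in thymus and 394 and 338 CPM in spleen. Spleen was higher in both genotypes, 4.77-fold and 3.54-fold, with ratios of 2.25 (95% interval 1.92 to 2.62) and 1.83 (1.69 to 1.97). In thinned cells it was present in 6.67% (3.86 to 10.6%) and 5.86% (4.45 to 7.54%) of thymic and 27.2% (24.2 to 30.3%) and 21.9% (20.6 to 23.2%) of splenic cells, against 2.99% and 1.86% of thymic cells with Dntt, and unthinned in 16.2% and 17.1% in thymus and 35.1% and 31.4% in spleen.

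Genes of recent signaling were also among those higher in spleen. Of 13 described selection and TCR signal response genes, Cd69 and Nfkbid were higher in spleen and Tox and Ikzf2 in thymus, with medians of 0.33 and 0.65. These counts ran from 1 to 5 toward spleen and from 1 to 4 toward thymus over the 17 alternatives. Nfkbid, an atypical inhibitor of NF-kB, was at 11.4 and 19.1 CPM in thymus and 61.0 and 119 CPM in spleen, 5.14-fold and 6.18-fold higher in spleen. Immediate early and stress genes (28 described) had 3 members higher in spleen in both genotypes (Ier2, Ier5 and Dusp2) and 0 in thymus, with medians of 0.35 and 1.51. The count of 3 ran from 2 to 14 over the 17 alternatives, with 7 with TMM factors, with median-of-ratios factors, with at least 2 CD8 UMIs and after thinning, 8 without cells with marker UMIs of other lineages and 14 without the Dntt condition. The spleen library labelled Pdcd1 cKO was the one with heat shock RNA, and without cells that carried it the medians were 0.66 and 1.38. Dusp2, a phosphatase of MAP kinases, was at 167 and 241 CPM in thymus and 452 and 636 CPM in spleen, with no overlap, and was kept in all 17.

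Sltm, which encodes a SAFB-like modulator of transcription, was high in spleen to nearly the same extent in both genotypes. Its level was 162 and 156 CPM in thymus and 756 and 705 CPM in spleen, 4.65-fold and 4.51-fold higher in spleen, with ratios of 2.22 (95% interval 1.98 to 2.47) and 2.17 (2.07 to 2.28). Within each tissue the libraries were alike, and the splenic levels were far above the thymic ones. Its UMIs were spread over 110 and 494 thymic and 533 and 2561 splenic cells, and the richest cell of a library held at most 3.21% of them. Sltm was kept in all 17 alternatives. The gene lies at chr9:70449676-70499528 on GRCm39 (plus strand) and shares part of that span with Mindy2 on the other strand.

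Several leading genes rested on few cells or on 1 library. Igkc, the kappa light chain of antibodies, was at 9.35 and 4.88 CPM in thymus and 66.8 and 900.0 CPM in spleen, where in spleen of Pdcd1 cKO it was found in 2137 of 3872 cells and 1 cell held 23.1% of its UMIs. Ighg2b, a heavy chain, had 0 UMIs in both thymus libraries and 19 and 1509 in spleen, at least 4.43-fold and at least 354-fold higher than a floor of 3 thymic counts, and 1 cell held 67.4% of the larger number. The noncoding RNA 1700016L21Rik, which overlaps Cul3 on the other strand, was at 90.8 and 99.4 CPM in spleen and 11.4 and 2.54 CPM in thymus, from 2 and 23 splenic cells. On the thymic side, Dcn and Mgp, both of connective tissue, came from 3 and 8 cells and from 3 and 6 cells. Dcn was at 200.5 and 23.8 CPM in thymus and 0 and 2.61 CPM in spleen, and Mgp at 78.9 and 6.44 CPM in thymus and 0 in spleen, at least 36.2-fold and at least 15.6-fold higher in thymus against a floor of 3 splenic counts. Dcn was kept in 9 of the 17 alternatives, with a ratio that turned to 1.40 in the libraries labelled Pdcd1 cKO with at least 2 CD8 UMIs, and Mgp in 6.

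Some genes of the immature stage were higher in thymus. Of 13 described immature thymocyte genes, 6 were at least 2-fold higher in thymus in both genotypes (Hes1, Cd24a, Arpp21, Sox4, Ccr9 and Myb) and 0 in spleen, with medians of −1.57 and −0.82 that stayed below 0 with each scaling. Both ratios were below 0 for 10 of the 13, and above 0 for Nrarp, a Notch target (2.94 and 0.92), while Themis (−0.20 and 0.20) and Dtx1 (−0.21 and 0.65) had opposite signs. The count toward thymus ran from 0 to 13 over the 17 alternatives, with 0 of 3 described at a mean of at least 100 CPM, 13 of 23 with no filter beyond 1 UMI and, by construction, 3 without cells with immature or gamma-delta RNA. Hes1, a repressor induced by Notch, was at 220.2 and 105 CPM in thymus and 1.45 and 3.29 CPM in spleen, with ratios of −6.93 (95% interval −10.30 to −5.37) and −4.97 (−5.66 to −4.41) and only 2 UMIs in spleen of Pdcd1fl/fl. Cd24a, the heat-stable antigen that thymocytes lose as they mature, was at 117 and 75.3 CPM in thymus and 1.45 and 3.98 CPM in spleen, with ratios of −6.02 (95% interval −9.40 to −4.45) and −4.22 (−4.84 to −3.70). Both were far higher in thymus, and the library labelled Pdcd1fl/fl was the higher of the thymic pair.

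Sox4, a factor of early lymphocytes, was at 81.0 and 89.9 CPM in thymus and 5.81 and 6.44 CPM in spleen, 13.2-fold and 13.8-fold higher in thymus. Here the 2 genotypes gave nearly the same ratio, −3.72 and −3.79. In thinned cells it was found in 6.25% and 7.22% of thymic and 0.116% and 0.491% of splenic cells, and unthinned in 24.2% and 30.3% in thymus and 0.465% and 0.930% in spleen. Thymic cells with Dntt reached 15.5% and 22.1%, so in this share the cells kept stood between the cells with Dntt and the spleen. Unthinned, the cells with Dntt held Trdc in 53.0% and 50.5%, Il2ra in 30.7% and 38.6%, Cd8b1 in 37.9% and 47.6% and Cd4 in 0.408% and 1.58%. Whether they are precursors of the cells kept was not tested.

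Hes1 and Cd24a shared that order. Hes1 was present in 19.2% and 9.83% of thinned thymic cells and 32.2% and 30.7% of those with Dntt. In spleen of Pdcd1fl/fl it was found in 0 of 861 thinned cells. A floor of 3 counts allows up to 0.348% of cells with a UMI at this thinned depth, and the 95% interval reaches 0.428%. Neither sets a limit on cells expressing Hes1. In spleen of Pdcd1 cKO it was found in 0.207%. Cd24a was in 10.4% and 9.41% of thinned thymic cells, 27.2% and 25.3% with Dntt and 0.232% and 0.258% of splenic cells. Without thinning, Hes1 was in 39.6% and 31.3% of thymic and 0.232% and 0.568% of splenic cells, and Cd24a in 31.2% and 29.9% in thymus and 0.232% and 0.568% in spleen.

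Ikzf2, which encodes Helios and is induced by strong self-recognition, was at 127 and 109 CPM in thymus and 10.2 and 14.9 CPM in spleen, 12.1-fold and 7.25-fold higher in thymus. Tox, a factor that positively selected cells require, was at 159 and 196 CPM in thymus and 51.6 and 93.2 CPM in spleen, 3.07-fold and 2.10-fold. Both genes were higher in each thymus library than in each spleen library, although Tox fell under 2-fold without the Dntt condition, at −0.98 and −0.66, and without cells that held Mki67 or Top2a, at −1.60 and −0.99, and its intervals did not both lie beyond 2-fold. Thinned Ikzf2 shares were 12.5% and 9.83% in thymus and 0.465% and 1.45% in spleen (30.8% and 30.2% in thymus and 1.16% and 2.35% in spleen without thinning). In thymic cells with Dntt they were 9.92% and 17.0%, so Ikzf2 was counted in cells with Dntt too.

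Ly6d, a surface protein of early lymphoid cells, was at 306 and 168 CPM in thymus and 0.726 and 7.82 CPM in spleen, with ratios of −8.14 (95% interval −14.03 to −6.23) and −4.42 (−4.84 to −4.04) and a single UMI in spleen of Pdcd1fl/fl. Trdc, the constant region of the delta receptor chain, was at 45.7 and 35.1 CPM in thymus and 6.54 and 8.23 CPM in spleen, 6.70-fold and 4.24-fold higher in thymus. Neither gene overlapped between tissues. Rag1, the recombinase of receptor assembly, was too low to be among the genes described, with 23 and 41 UMIs in thymus and 0 in both spleen libraries.

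Thymic cells were then split by whether they held a UMI of Cd24a, Rag1, Arpp21, Hes1, Il2ra, Trdc or Trgc1, a split made after seeing the data. There were 157 and 648 cells with such a UMI, at median depths of 3526 and 5005 UMIs, and 83 and 308 without, at 3332 and 4745.5. Sox4, which did not define the split, was at 102 and 101 CPM with and 35.7 and 65.0 CPM without. Ikzf2 was at 147 and 118 CPM with and 84.5 and 88.4 CPM without. Both genes were lower in the cells without immature RNA and still above every splenic level.

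The same split left Klf2 at 441 and 392 CPM with and 500.3 and 455 CPM without, and Dapl1 at 62.6 and 97.1 CPM with and 123 and 90.9 CPM without. For these 2 genes thymic cells without immature RNA stayed below both spleen libraries. Sltm was at 165 and 157 CPM with and 156 and 154 CPM without, nearly even across the split. Itgae went the other way from Sox4, at 71.8 and 86.9 CPM with and 104 and 119 CPM without.

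Many cell cycle genes were higher in thymus. Of 25 described members, 15 were at least 2-fold higher in thymus in both genotypes and 0 in spleen, with medians of −2.18 and −1.08, below 0 with each scaling. Top2a, the topoisomerase of dividing cells, was at 181 and 93.4 CPM in thymus and 13.8 and 16.3 CPM in spleen, 12.8-fold and 5.71-fold higher in thymus. Ube2c, which works with the anaphase-promoting complex, was at 143 and 39.4 CPM in thymus and 13.8 and 6.44 CPM in spleen, and Hmgb2, a chromatin protein abundant in dividing cells, at 1163 and 693 CPM in thymus and 322 and 293 CPM in spleen. All 3 genes were lowest in spleen, and in thymus the library labelled Pdcd1fl/fl was higher than that labelled Pdcd1 cKO.

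A UMI of Mki67 or Top2a was found in 39.6% and 33.1% of thymic and 1.86% and 2.97% of splenic cells, and in 16.7% and 10.4% of thymic and 1.39% and 1.68% of splenic cells after thinning. Thinned, Top2a was in 12.5% and 6.80% of thymic, 1.28% and 1.24% of splenic and 24.9% and 18.5% of Dntt-bearing thymic cells, and without thinning in 35.0% and 26.3% of thymic and 1.63% and 2.38% of splenic cells. With the Mki67 or Top2a cells left out, 7 of 19 described cell cycle genes were past 2-fold toward thymus, with medians of −1.53 and −0.70. Over the 17 alternatives this count ran from 3 to 26, with 24 when the Dntt condition was dropped.

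Because these genes moved together, the 250 bases before their starts were searched on both strands, in promoters from RefSeq on GRCm38.p6, a step chosen after seeing the data. Of the 15 genes, 14 matched, with 16 promoters, and Stmn1 did not. The letters CCAAT, the binding motif of NF-Y, were in 75.0% of these promoters and in 33.8% of all 32851. TTTGAA, known as the cell cycle homology region, was in 31.2% and in 16.0% of all. An E2F motif (TTTGGCGC, TTTCCCGC or TTTCGCGC) was in 18.8% and in 1.53% of all. The whole cell cycle list, with 36 promoters of 34 genes, held CCAAT in 75.0%, TTTGAA in 22.2% and an E2F motif in 16.7%. The promoters with the most CCAAT and TTTGAA matches are printed 5′ to 3′, with both motifs in capitals on either strand. They belong to Top2a at chr11:99024190-99024439 (minus strand), Hmgb2 at chr8:57511593-57511842 (plus strand), Ube2c at chr2:164769679-164769928 (plus strand) and Mki67 at chr7:135716380-135716629 (minus strand).
Top2a: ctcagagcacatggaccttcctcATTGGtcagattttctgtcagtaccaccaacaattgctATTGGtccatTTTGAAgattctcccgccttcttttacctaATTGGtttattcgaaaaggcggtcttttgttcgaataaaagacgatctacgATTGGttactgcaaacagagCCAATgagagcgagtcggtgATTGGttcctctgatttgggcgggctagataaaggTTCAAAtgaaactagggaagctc
Hmgb2: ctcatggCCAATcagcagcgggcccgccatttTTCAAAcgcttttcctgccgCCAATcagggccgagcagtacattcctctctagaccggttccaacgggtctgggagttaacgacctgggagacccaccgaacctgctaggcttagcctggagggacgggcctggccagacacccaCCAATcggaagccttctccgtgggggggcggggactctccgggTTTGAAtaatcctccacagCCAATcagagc
Ube2c: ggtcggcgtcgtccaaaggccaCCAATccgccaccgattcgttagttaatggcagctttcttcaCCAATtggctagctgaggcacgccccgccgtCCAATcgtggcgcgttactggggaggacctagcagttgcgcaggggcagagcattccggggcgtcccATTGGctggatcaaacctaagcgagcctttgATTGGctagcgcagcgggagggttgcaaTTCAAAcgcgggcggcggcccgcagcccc
Mki67: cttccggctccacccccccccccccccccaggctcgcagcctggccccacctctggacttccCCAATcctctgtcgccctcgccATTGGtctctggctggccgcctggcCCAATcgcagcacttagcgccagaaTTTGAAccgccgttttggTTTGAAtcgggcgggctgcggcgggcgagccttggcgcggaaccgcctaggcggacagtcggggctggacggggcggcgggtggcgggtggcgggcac
Top2a holds 6 CCAAT and 2 TTTGAA matches, Hmgb2 4 and 2, Ube2c 5 and 1, and Mki67 3 and 2. In the Ube2c promoter an ATTGG that shares bases with a CCAAT in capitals was neither marked nor counted. A match is a description of the letters and shows no binding.

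The remaining lists had few or no members past 2-fold, beside 1.58% of all genes described toward spleen and 2.12% toward thymus. Interferon-stimulated genes (27 described) had 2 higher in thymus (Ifi27l2a and Rtp4) and 0 in spleen, with medians of −0.64 and −0.52 that changed to 0.38 and −0.01 when the Dntt condition was dropped, where 0 were higher in thymus. Cytokine receptors (15) had Il6ra, a chain of the IL-6 receptor, higher in spleen and Ifngr2, a chain of the interferon gamma receptor, higher in thymus, with medians of 0.34 and 0.49, and with 6 and 0 when that condition was dropped. Without cells that held Ccl5, Nkg7 or Gzma, Il6ra turned to −0.28 and Ifngr2 to 0.27 in the libraries labelled Pdcd1fl/fl. In the Bcl2 family (9), the death-promoting members Bbc3 and Pmaip1 were higher in spleen and 0 in thymus, with medians of 0.33 and 0.43 and a count toward spleen of 0 to 4 over the 17 alternatives. In the S100 and Ly6 families (10), S100a6, Ly6c1 and Ly6c2 were higher in spleen and Ly6d in thymus, with medians of 0.05 and 0.40, the first of which was −0.04 with median-of-ratios factors. Without cells that held Mki67 or Top2a, this list had 0 members higher in spleen and 2 in thymus and a first median of −0.22, and without those with immature or gamma-delta RNA, chosen after seeing the data, 0 higher in spleen, while dropping the Dntt condition gave 4. Coreceptors and lineage factors (8) had 1 member higher in thymus, Tox, and 0 in spleen, with medians of −0.29 and −0.06, the first of which was above 0 with TMM and median-of-ratios factors.

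In 8 further lists 0 genes were past 2-fold in both genotypes in either direction. The medians were −0.31 and 0.02 for inhibitory receptors (5 described), −0.25 and 0.11 for MHC class I presentation (20), 0.56 and 0.42 for the GIMAP family (8) and −0.22 and 0.17 for the TCR complex and proximal signaling (28). For glycolysis (15) they were −0.85 and 0.26, for the actin cytoskeleton (24) −0.13 and 0.40, for cytosolic ribosomal proteins (79) 0.24 and −0.49 and for the mitochondrial genome (12) −0.17 and −0.31. All but the GIMAP family and the mitochondrial genome, 6 of the 8, had medians on opposite sides of 0 in the 2 genotypes. Without the Dntt condition, 4 GIMAP genes, 4 TCR complex genes, 2 MHC class I genes, 2 actin genes, 1 glycolysis gene and 1 inhibitory receptor were past 2-fold toward spleen, and 5 glycolysis genes, 1 TCR complex gene, 1 actin gene and 1 inhibitory receptor toward thymus. Over all genes described in that setting, 282 of 5546 were past 2-fold toward spleen and 403 toward thymus. Over the other 16 alternatives each of the 8 lists had at most 2 genes toward spleen and at most 3 toward thymus. The signs of the inhibitory receptor, MHC class I, TCR complex, actin and mitochondrial medians changed with the scaling in at least 1 genotype.

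**Figure D3:**
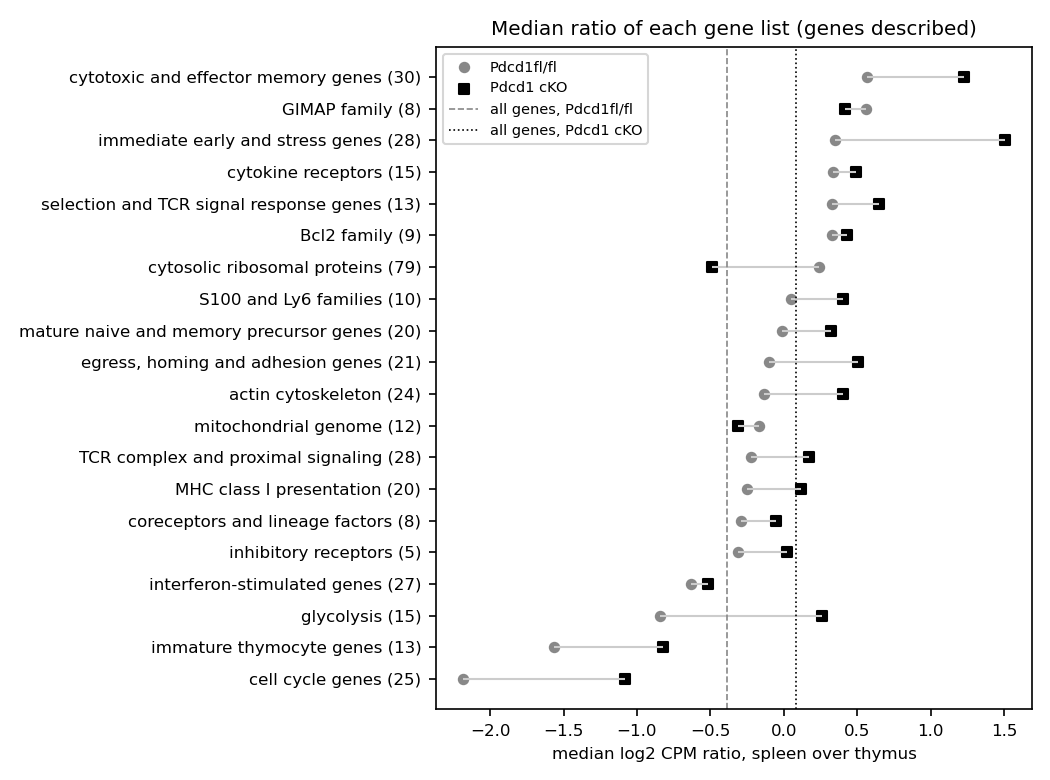
Each line is a gene list with the number of its genes described, and the points give the median log2 CPM ratio of spleen over thymus, grey circles for libraries labelled Pdcd1fl/fl and black squares for Pdcd1 cKO, with dashed and dotted lines at the medians of all genes (−0.39 and 0.08). Cell cycle and immature thymocyte genes lie lowest in both, and cytotoxic genes lie above 0 in both.

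Gm50021 led the abundant genes on the thymic side, at 220.2 and 901 CPM in thymus and 31.2 and 20.2 CPM in spleen. It is a noncoding RNA at chr17:75159993-75167929 on GRCm39 (minus strand) that overlaps Ttc27 on the other strand. Thymus was higher in both genotypes, and the thymus library labelled Pdcd1 cKO was the highest of the 4. In thymus of Pdcd1fl/fl 1 cell held 97 of the 212 UMIs of Gm50021 (45.8%), and the 10 richest cells held 76.9%, and the gene was kept in all 17 alternatives. Of the other genes given with values, Klf2 overlaps Eps15l1, Cd24a Mtres1, Itgae Haspin, Ube2c Tnnc2, Trdc Trdv5, and Ccr9 both Lztfl1 and Slc6a20a, in each case on the other strand. Whether the counting used strand is not given in the sources used here, so these pairs cannot be told apart. The near-identical copies among the genes leading toward thymus, H2ac23 with H2ac24 and Hmgn2 with Hmgn2-ps, are uncertain for the same reason of shared reads.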

How the data were processed

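Gene expression was measured by single-cell RNA sequencing (PIPseq v3) in 6 libraries of CD8 T cells, of which 2 from spleen and 2 from thymus were compared. The values are raw UMI counts per gene and barcode as deposited by the authors, who ran the PIPseq pipeline with GRCm39, counted each UMI of a transcript once, and used Seurat 4.3.0. The limits on genes, UMIs and mitochondrial share below are those the study states.

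Cells were kept with at least 500 genes, 1000 UMIs, at most 20% mitochondrial UMIs, at least 1 UMI of Cd8a or Cd8b1 and 0 of Dntt. No doublets were removed, and an alternative left out the 5% of cells with the most UMIs. Counts were summed per library and scaled to CPM, and log2 ratios of spleen over thymus were taken within genotype with 0.5 counts added to each side. Genes with a mean of at least 20 CPM were described, and at least 2-fold in both genotypes was the threshold. With 1 library per tissue and genotype no test was run. Intervals of 95% are exact conditional binomial for ratios, Poisson for levels and Clopper-Pearson for shares. They cover counting error only, and the fewest UMIs, 962825, were in the thymus library labelled Pdcd1fl/fl. For shares, each cell was thinned to 1000 UMIs.

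Members and lists were chosen with earlier results of these data known. Named genes were Cd8a, Cd8b1, Dntt and Pdcd1, the 15 genes per direction with the largest smaller ratio of the 2 genotypes, the same among genes of at least 200 CPM in both libraries of the higher tissue, up to 6 members per direction of each of 20 gene lists with those of opposite signs, and all members of 12 marker lists. Other genes given with values were chosen after their values were seen. Alternatives changed the scaling, the filter on low genes, the fold rule, the cell gates and the cells kept. Calculations used Python 3.11.15, numpy 2.4.6, pandas 2.3.3, scipy 1.17.1 and matplotlib 3.10.9, with edgeR 4.0.16 in R 4.3.3 for TMM factors, and were tested on simulated data. Gene positions are from GENCODE vM39.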

Additional observations from a re-analysis of the deposited data

Results flagged for a closer look

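In 9 genes the libraries labelled Pdcd1fl/fl and those labelled Pdcd1 cKO gave ratios of spleen over thymus past 2-fold in opposite directions. The difference between the genotypes (Pdcd1 cKO minus Pdcd1fl/fl, log2) was not tested for any of them. Pdcd1 RNA went against these labels, while the study's flow cytometry of PD-1 ran with them. With TMM or median-of-ratios factors, 3 of the 9 (Ier3, Fos and 6030407O03Rik) were past 2-fold in opposite directions.

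Of genes induced by stimulation, Ier3 had ratios of −2.38 and 1.63, a difference of 4.01, with 35.3 and 18.9 CPM in thymus and 6.54 and 58.8 CPM in spleen. Fos, an AP-1 subunit, had −1.92 and 1.47, a difference of 3.39, with 394 and 109 CPM in thymus and 104 and 303 CPM in spleen. Ifng, which encodes interferon gamma, had −1.13 (95% interval −2.77 to 0.33) and 2.12, a difference of 3.25, from 11 and 131 UMIs in thymus and 7 and 812 in spleen. Ccl3, a chemokine, had −1.002 (95% interval −4.68 to 2.02) and 2.69, a difference of 3.70, from 3 and 54 UMIs in thymus and 2 and 501 in spleen. For all 4 genes the spleen library labelled Pdcd1 cKO was above the other spleen library. That library also had Hspa1a or Hspa1b in 65.0% of cells against 7.08%, and Igkc or Ighg2b in 58.6% against 11.7%. An alternative chosen after seeing the data left out the cells of all 4 libraries that held Hspa1a or Hspa1b. The ratios were then 1.98 and 1.89 for Ier3 and 0.44 and 1.68 for Fos, no longer opposite. In thymus of Pdcd1fl/fl this left 1 of 34 Ier3 UMIs and 69 of 379 Fos UMIs. Without the 5% of cells with the most UMIs, Ier3 was at 0.93 and 1.41 and Fos at −0.75 and 1.39. After thinning, both genes were opposite past 2-fold (−1.88 and 1.23, −1.10 and 1.86). Without the Hspa1a or Hspa1b cells, Ifng (−1.31 and 2.10) and Ccl3 (−1.004 and 2.49) were opposite. With at least 2 CD8 UMIs, Ifng was opposite (−1.16 and 2.16) and Ccl3 was not (0.65 and 2.60).

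Tspan31 differed by 2.36 (−1.09 and 1.28), Lin37 by 2.21 (−1.06 and 1.15), Tfip11 by 2.34 (−1.06 and 1.28) and Cdpf1 by 2.20 (−1.002 and 1.20). The noncoding RNA 6030407O03Rik ran the other way, with a difference of −11.20 (7.36 and −3.84). It had 0 and 95 UMIs in thymus and 117 and 9 in spleen, so 7.36 and −11.20 are set by the 0.5 counts added and are no measure of size. Against a floor of 3 thymic counts, spleen was at least 27.3-fold higher in the libraries labelled Pdcd1fl/fl. After thinning to 1000 UMIs its second ratio was 0.15, from 1 UMI in thymus and 6 in spleen of Pdcd1 cKO. Without cells with immature or gamma-delta RNA, an alternative chosen after seeing the data, it was 0.53, from 1 and 9 UMIs. With 1 thymic UMI in each, these ratios are little measure of size.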

How the results depend on the processing

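The 86 spleen-higher and 115 thymus-higher genes were recounted under 19 alternatives, 17 of scaling, filters, gates and cells (2 of them chosen after seeing the data) and 2 that each leave out 1 genotype, and 16 of the 38 counts stayed within 1.5 times. Such counts did not always hold the same genes. Without cells with marker UMIs of other lineages, 48 of 89 genes toward spleen were among the 86. Without cells with Mki67 or Top2a, 57 of 68 toward spleen and 69 of 80 toward thymus were shared. Without cells with a Cd4 UMI, 84 of 84 and 113 of 114 were. TMM factors gave 144 toward spleen, median-of-ratios factors 64 toward thymus, and the total without mitochondrial, ribosomal protein and Malat1 counts 231 toward thymus. By construction, a mean CPM of at least 5 gave 182 and 399, at least 100 gave 32 and 13, no filter beyond 1 UMI gave 1214 and 1019, and requiring both intervals beyond 2-fold gave 25 and 57. Dropping the Dntt condition gave 282 and 403, and thinning to 1000 UMIs 175 toward thymus. Leaving out cells with Ccl5, Nkg7 or Gzma gave 288 and 457, from 20 and 83 thymic and 39 and 21 splenic cells. Leaving out cells with markers of other lineages gave 246 toward thymus, and leaving out cells with immature or gamma-delta RNA, chosen after seeing the data, gave 61. Without 1 genotype, which leaves a single ratio, counts ranged from 131 to 318 toward spleen and from 175 to 771 toward thymus. A joint exclusion of immature, gamma-delta, cycling and memory cells, also chosen afterwards, was not run because it left 5 and 22 thymic and 37 and 20 splenic cells, under a minimum of 10 set at that point.

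Of 356 named genes, 72 were past 2-fold in both genotypes, and among the ratios of these 72 genes 11 in 9 genes turned in direction, with the cause not tested. With at least 2 CD8 UMIs, Dcn was 1.40 in Pdcd1 cKO. Without the Dntt condition, Ctnna2 was −0.17 in Pdcd1fl/fl. Without cells with Ccl5, Nkg7 or Gzma, ratios in Pdcd1fl/fl were −0.39 for Ctnna2, −1.13 for Eomes, 0.27 for Ifngr2 and −0.28 for Il6ra, and in Pdcd1 cKO 0.46 for Ccnb2, 0.0855 for Cdca7, −0.0706 for Ms4a4c and −0.48 for S100a6. Without cells with markers of other lineages, Eomes was −0.00928 in Pdcd1fl/fl. Of the other ratios of the named genes, whose signs were not followed below 2-fold, 8450 stayed within their counting intervals and 3595 did not. The alternatives that changed only the CPM filter or the fold rule use the same ratios. Their part of the 8450 could not move. Depth limits the ratios of genes with few UMIs in either library of a pair.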
